A study of Mus musculus with 2 samples.

Results

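DNA replication and S phase genes are those a cell transcribes to copy its genome. They include the factors that mark and load origins, the helicase, the polymerases and the enzymes that make deoxynucleotides. The E2F and cyclin E genes that control the programme also belong to them. The list held 40 genes, chosen by name, and its members were every probe set (the group of short probes that reads a transcript) whose platform gene symbol was exactly 1 of these names. They were 85 probe sets for 39 genes, of 18193 genes named on the array; Chaf1a had no probe set under its symbol alone and is not analysed here. The list was drawn up by known function and not from signal values, but with earlier results of these data in view.

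Superficial zone cells are the flattened chondrocytes of the surface layer of articular cartilage. They were prepared from the femur and tibia joints of ICR mice at postnatal day 4, grown in DMEM with 10% fetal bovine serum, and kept for 24 h without retinoic acid (control, 1 array) or with 10 μM retinoic acid (1 array), the active form of vitamin A. Each RNA was hybridised to 1 Affymetrix Mouse Genome 430 2.0 array. The labels do not say how many animals each culture held or whether both came from the same preparation. With 1 array per group no difference below has a replicate check and no test was possible, so every ratio describes these 2 arrays, whose number limits how precise any value can be.

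In a dividing cell the origin recognition complex, CDC6 and CDT1 load the MCM helicase onto DNA in G1. At the start of S phase CDC45 and the GINS complex join it to form the working helicase, after which polymerases copy both strands, the sliding clamp PCNA holds them on, and FEN1 and DNA ligase I seal the lagging strand. Many of these genes are transcribed together under E2F factors as cells leave G1, and articular chondrocytes of young animals still divide.

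All values are MAS5 signals, a linear brightness per probe set. A probe set was taken as measured where its signal lay above the median of its array, 26.5 in control and 29.7 with retinoic acid, and a gene was read by its brightest probe set. Each ratio is the signal with retinoic acid over the signal in control, so values above 1 are higher with retinoic acid. Of the 39 genes 37 were above the median on both arrays and E2f2 only with retinoic acid, which gives a bound. Tyms, which encodes thymidylate synthase, was at or below the median on both arrays in all 4 of its own probe sets and has no ratio. The only repeat measurement is that of several probe sets on 1 gene: their log2 ratios scattered with a pooled SD of 0.30 over 4993 genes of the array and 0.32 over the 21 members with more than 1 probe set above both medians. This SD covers the reading of the same RNA and holds no variation between cultures.

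Most replication and S phase genes had higher signals with retinoic acid, by amounts that mostly stayed under 2-fold. Of the 38 measured members 33 had a ratio above 1 (86.8%), counting Gins2, whose signals round to the same value, against 51.6% of the 11884 measured genes of the array. Ratios of at least 1.5 were seen in 18 members (47.4%), against 14.3% of all measured genes, and ratios of at least 2 in 7 members (18.4%), against 6.54%. The 2-fold count depended on the settings: it was 2 of 26 members (7.69%, against 5.32% of all genes) with the floor raised to the 70th percentile of each array, and 3 of 34 (8.82%, against 6.29%) with each gene at the median of its probe sets. The 1.5-fold shares there were 42.3% against 12.1% and 44.1% against 14.7%. With medians over probe sets Chaf1b and Gins1 have only bounds, log2 ratios of at least 0.44 and 0.95. The member counts in that setting may therefore be too low. The 7 members as reported were Chaf1b, Tk1, Gins1, Uhrf1, Brca1, Lig1 and Rrm1. None was at least 2-fold lower, against 4.34% of all measured genes, and 1, Orc1, was at least 1.5-fold lower by its brightest probe set, against 11.4%; by its other probe set none was. The median log2 ratio of the members was 0.45 and that of all measured genes 0.02. Mcm5, Ccne2 and Fen1 lay just under 2-fold, with ratios of 1.99, 1.97 and 1.93, and Rrm1 just above it, with 2.25. In a bulk culture a larger share of cells in S phase and more transcript per cell cannot be told apart.

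**Figure D1:**
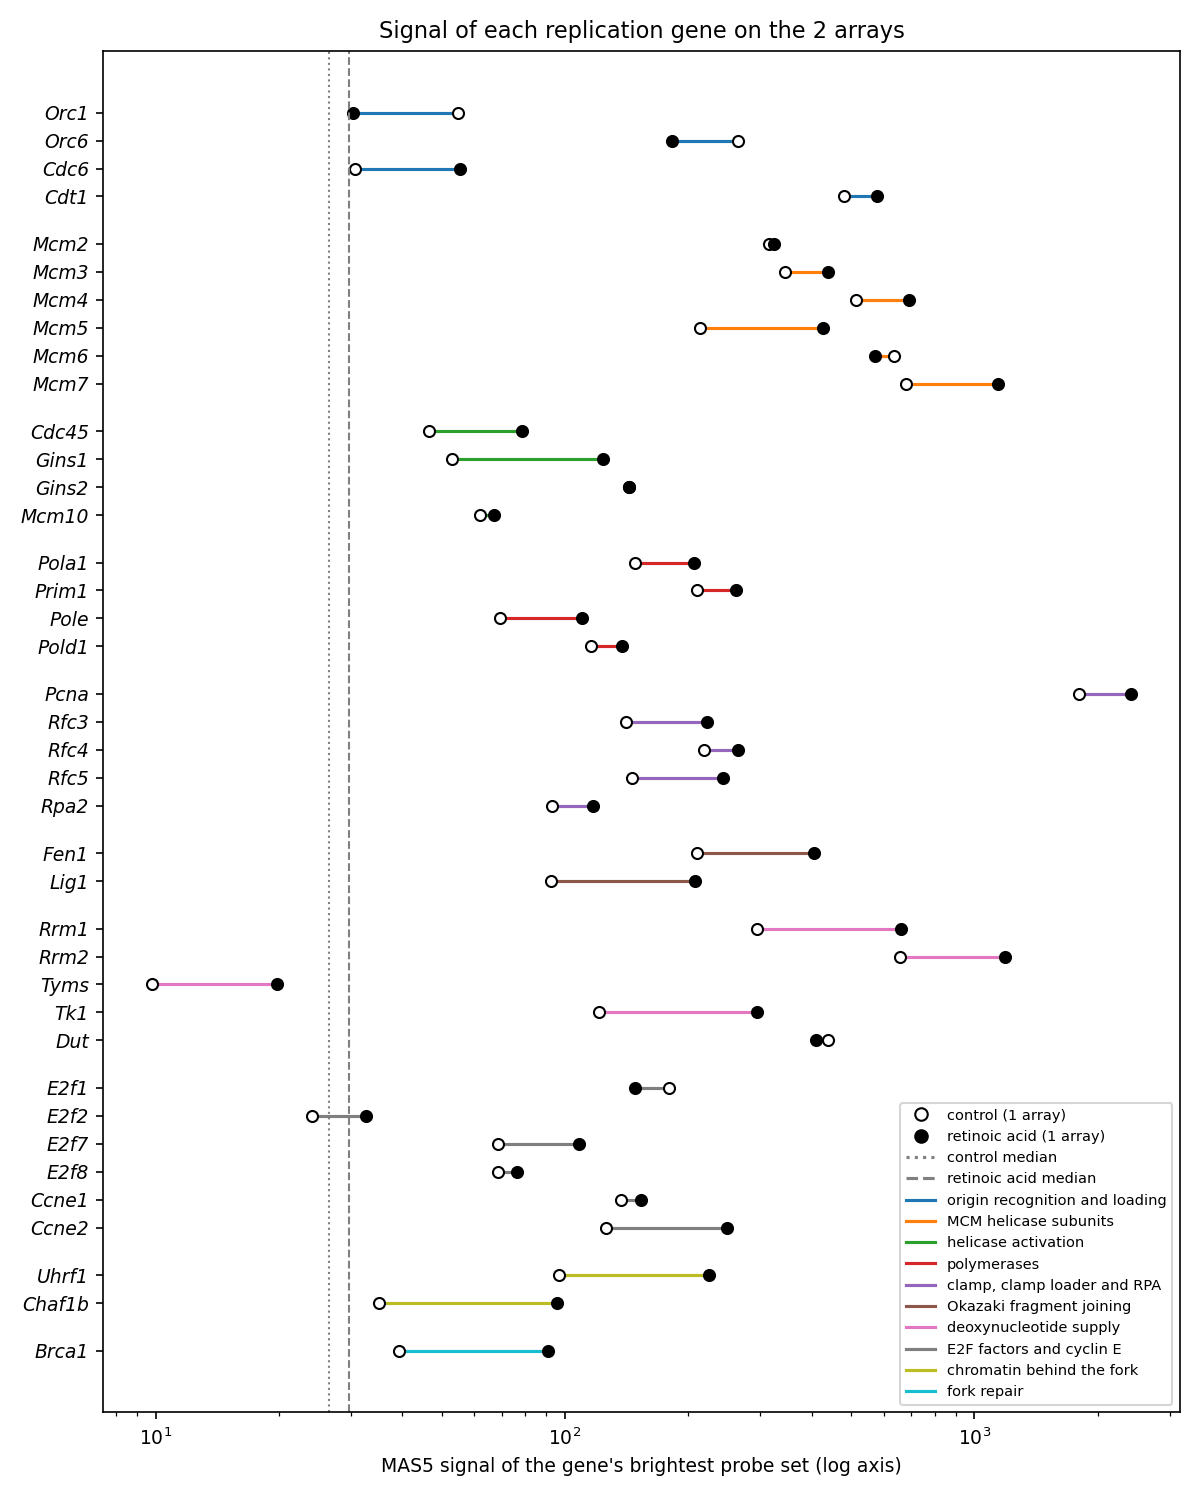
Signal of the brightest probe set of each of the 39 genes on a log axis, open circles for the control array and filled circles for the retinoic acid array, joined by a line coloured by role. The vertical lines are the array medians of 26.5 and 29.7; Tyms lies left of both, and the filled circle is to the right of the open one for most genes.

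The genes that recognise and load origins went both ways. Orc1 encodes the largest subunit of the origin recognition complex, and its probe sets disagreed: 1 gave 54.8 in control and 30.4 with retinoic acid, the other 31.8 and 52.0. Their ratios were 0.555 and 1.64, on opposite sides of 1, and both lay close to the array medians, so no direction is given for Orc1. Orc6, the smallest subunit, had a signal of 264 in control and 182 with retinoic acid, a 1.45-fold lower value from its single probe set. Cdc6, which brings the helicase to the origin, had 30.7 and 55.3, a ratio of 1.80 from a control signal barely above the median. Cdt1, the loading partner of CDC6, had 479 and 579 (ratio 1.21), and its second measured probe set gave 1.34. By brightest probe sets the median log2 ratio of the 4 was −0.13, with Cdc6 past 1.5-fold upward. With the other probe set of Orc1 it was 0.49, with 2 of the 4 past 1.5-fold upward, so this role has no settled direction.

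The 6 subunits of the MCM helicase form a ring in equal numbers, yet their transcripts had unequal ratios. Mcm5 had a signal of 214 in control and 427 with retinoic acid, and its 2 probe sets above both medians gave ratios of 1.99 and 1.87. Mcm7 had 680 and 1142, and its 4 probe sets gave ratios from 1.51 to 1.91. By brightest probe sets these 2 subunits stood highest of the 6, and every one of their probe sets above both medians was past 1.5-fold.

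Mcm4 followed, with 515 and 693 and log2 ratios of 0.43 and 0.64. The higher of these was also past 1.5-fold and lay above the lowest log2 ratio of Mcm7, 0.60, so the ranges of Mcm4 and Mcm7 overlapped. Mcm2 had 314 and 324, with 0.05 and 0.13, and Mcm6 had 635 and 573, with −0.15 and 0.22. The ranges of Mcm5 and Mcm7 did not overlap those of Mcm2 and Mcm6, while the probe sets of Mcm2 lay inside the range of those of Mcm6. Mcm3 could not be placed, since its 4 probe sets above both medians ran from −0.59 to 0.34; the brightest had 345 and 438. The median log2 ratio of the 6 subunits was 0.39.

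The promoters of 3 of these subunits are shown because they belong to the same helicase and include its highest ratio (Mcm5) and its lowest ones (Mcm2 and Mcm6). Each line holds the 250 bases before the transcription start in RefSeq, build GRCm38.p6, read 5′ to 3′ on the strand of the gene, with E2F core letters in capitals. The spellings searched, on both strands, began with TTCGCGC and TTGGCGC. The other spellings were TTCCCGC and, last, TTGCCGC. Overlapping matches were merged into 1 run. Mcm5 (chr8:75109259-75109508, + strand, ratio 1.99), Mcm6 (chr1:128359706-128359955, − strand, ratio 0.903) and Mcm2 (chr6:88898781-88899030, − strand, ratio 1.03) read:
Mcm5: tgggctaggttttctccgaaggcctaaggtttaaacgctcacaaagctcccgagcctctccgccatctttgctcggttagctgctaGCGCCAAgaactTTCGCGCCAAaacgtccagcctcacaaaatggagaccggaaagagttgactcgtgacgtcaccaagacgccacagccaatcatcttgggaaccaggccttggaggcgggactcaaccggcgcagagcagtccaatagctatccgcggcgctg
Mcm6: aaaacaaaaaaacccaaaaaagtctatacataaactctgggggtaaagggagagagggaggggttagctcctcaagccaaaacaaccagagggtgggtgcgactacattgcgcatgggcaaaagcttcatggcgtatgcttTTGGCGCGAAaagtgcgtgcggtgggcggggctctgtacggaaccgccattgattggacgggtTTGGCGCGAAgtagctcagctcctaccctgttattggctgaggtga
Mcm2: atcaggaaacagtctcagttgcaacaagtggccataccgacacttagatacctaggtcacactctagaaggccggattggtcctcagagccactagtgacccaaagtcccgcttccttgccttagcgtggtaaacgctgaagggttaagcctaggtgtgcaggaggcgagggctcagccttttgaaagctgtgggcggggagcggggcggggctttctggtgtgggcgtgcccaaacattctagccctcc
Mcm5 and Mcm6 each held 2 separate runs of these letters before the start, beginning 164 and 152 bases upstream in Mcm5 and 109 and 46 bases upstream in Mcm6. Mcm2 held none in this window, which says nothing about sites elsewhere. The probe sets of Mcm6 gave ratios of 0.903 and 1.17, on either side of the 1.03 and 1.10 of Mcm2, so the order of these 2 subunits is not settled.

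The factors that turn the loaded ring into a working helicase were equally uneven. Gins1 had a signal of 52.9 in control and 124 with retinoic acid, a ratio of 2.35. Its partner Gins2 had 143 on both arrays, and a second probe set gave a ratio of 1.30. GINS1 and GINS2 are subunits of 1 complex, so here too partners differed.

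Cdc45 had 46.5 and 78.6, a ratio of 1.69, but its other probe set went from 38.5 to 27, the latter below the array median. Mcm10, which helps the helicase start, had 62.1 and 66.9 (ratio 1.08). All 4 genes were dim, with control signals from 46.5 to 143.

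The polymerase genes were higher by small amounts. Pole, the catalytic subunit that copies the leading strand, had 69.3 in control and 110 with retinoic acid (ratio 1.59). Pola1, the catalytic subunit of the primer-making polymerase, had 148 and 207 (1.40), and Prim1, the primase that lays its RNA, had 210 and 262 (1.25). Pold1, the catalytic subunit for the lagging strand, had 116 and 138 (1.19), with 0.985 from its second probe set. Of the 4 only Pole was past 1.5-fold, and their median log2 ratio was 0.40.

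Pcna, the gene of the sliding clamp and a common marker of proliferation, had 1799 in control and 2409 with retinoic acid, a ratio of 1.34. Of the genes of the clamp loader that opens it, Rfc5 had 146 and 243 (1.67), Rfc3 had 141 and 222 (1.57) and Rfc4 had 219 and 265 (1.21). Rfc3 and Rfc4 were each read by a second probe set, with ratios of 1.65 and 1.25. The Rfc3 probe sets stood above those of Rfc4 without overlap, but they read the same RNA and this order was not tested. Rpa2, a subunit of the protein that coats single-stranded DNA, had 92.7 and 117 (1.26). Both genes of lagging-strand joining were further up: Fen1, the flap nuclease, had 210 and 406 (1.93, and 1.77 by its second probe set), and Lig1, the ligase, had 92.4 and 208 (2.26).

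Deoxynucleotide supply held some of the highest ratios. Tk1, the salvage enzyme thymidine kinase 1, had 121 in control and 294 with retinoic acid, a ratio of 2.44. Rrm1, the large subunit of ribonucleotide reductase, had 294 and 661 (2.25), and 2.12 by its second probe set. Rrm2, the small subunit that limits the enzyme in S phase, had 659 and 1190 (1.81), and its 3 probe sets gave log2 ratios from 0.71 to 0.90. The 2 probe sets of Rrm1, at 1.09 and 1.17, lay above all 3 of Rrm2. The nearest pair, 1.09 and 0.90, was closer than the SD of 0.32 between probe sets of a member. The order of these 2 genes is therefore not settled.

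Dut, which encodes the enzyme that removes dUTP, stood apart from these with 439 and 411 (1.07-fold lower), while a dim second probe set gave a ratio of 1.41. Of the 4 measured supply genes 3 were past 1.5-fold and 2 past 2-fold. The promoters of Rrm1 (chr7:102441445-102441694, + strand) and Tk1 (chr11:117826015-117826264, − strand) are shown as the pair of highest ratio in this role, in the same form as above:
Rrm1: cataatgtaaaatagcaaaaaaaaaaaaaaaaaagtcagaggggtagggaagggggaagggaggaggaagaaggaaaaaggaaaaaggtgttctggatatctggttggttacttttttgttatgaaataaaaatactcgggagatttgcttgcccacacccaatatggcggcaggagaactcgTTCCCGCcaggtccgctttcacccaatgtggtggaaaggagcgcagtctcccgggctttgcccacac
Tk1: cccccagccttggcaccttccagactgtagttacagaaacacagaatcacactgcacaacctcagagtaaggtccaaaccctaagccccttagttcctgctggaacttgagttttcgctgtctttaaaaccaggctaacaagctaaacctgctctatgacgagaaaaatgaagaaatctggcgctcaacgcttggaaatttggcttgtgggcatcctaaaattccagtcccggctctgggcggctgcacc
Rrm1 held 1 run of E2F core letters, starting 67 bases upstream, and Tk1 held none of these spellings.

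The E2F and cyclin E genes, which control entry into S phase as activators or repressors, had a median log2 ratio of 0.23. Of the 6, 2 (33.3%, against 14.3% of all measured genes) were past 1.5-fold upward, the repressor gene E2f7 and Ccne2. E2f1, an activator of the programme, had 179 in control and 148 with retinoic acid, 1.21-fold lower, and 1.03-fold lower by its second probe set above the medians. E2f2, the other activator on the list, went from 24.1, below the control median, to 32.7, and has a bound of at least 1.23-fold higher. E2f7, a repressor among the E2F factors, had 68.6 and 108 (1.58), and E2f8, its paralog, had 68.7 and 76.4 (1.11).

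The cyclin E genes split. Ccne1 had 137 and 153 (1.12, and 1.22 by a second probe set), whereas Ccne2 had 126 and 248 (1.97). Both encode cyclins that activate CDK2 at the start of S phase.

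Genes that rebuild or repair chromatin behind the fork were among the highest of the list, as were Tk1 and Gins1, at ratios of 2.44 and 2.35. Chaf1b, a subunit of the CAF-1 complex that places histones on new DNA, had 35.1 in control and 95.6 with retinoic acid, the highest ratio of all members at 2.72. Its control signal lies near the median, and with the array median added to each signal its log2 ratio was 1.02 in place of 1.44. With the median over both of its probe sets, the second of which lay below both array medians, it was at least 0.44. That value is a bound, since the combined control signal lay below the array median and was raised to it. It does not show whether Chaf1b was past 1.5-fold in that setting. Uhrf1, which brings the maintenance DNA methyltransferase to new strands, had 96.4 and 225 (2.34), but only 1.23 by a second, dimmer probe set. Brca1, a gene of fork protection and recombination, had 39.4 and 90.7 (2.31); its other 3 probe sets were at or below the median on both arrays.

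**Figure D2:**
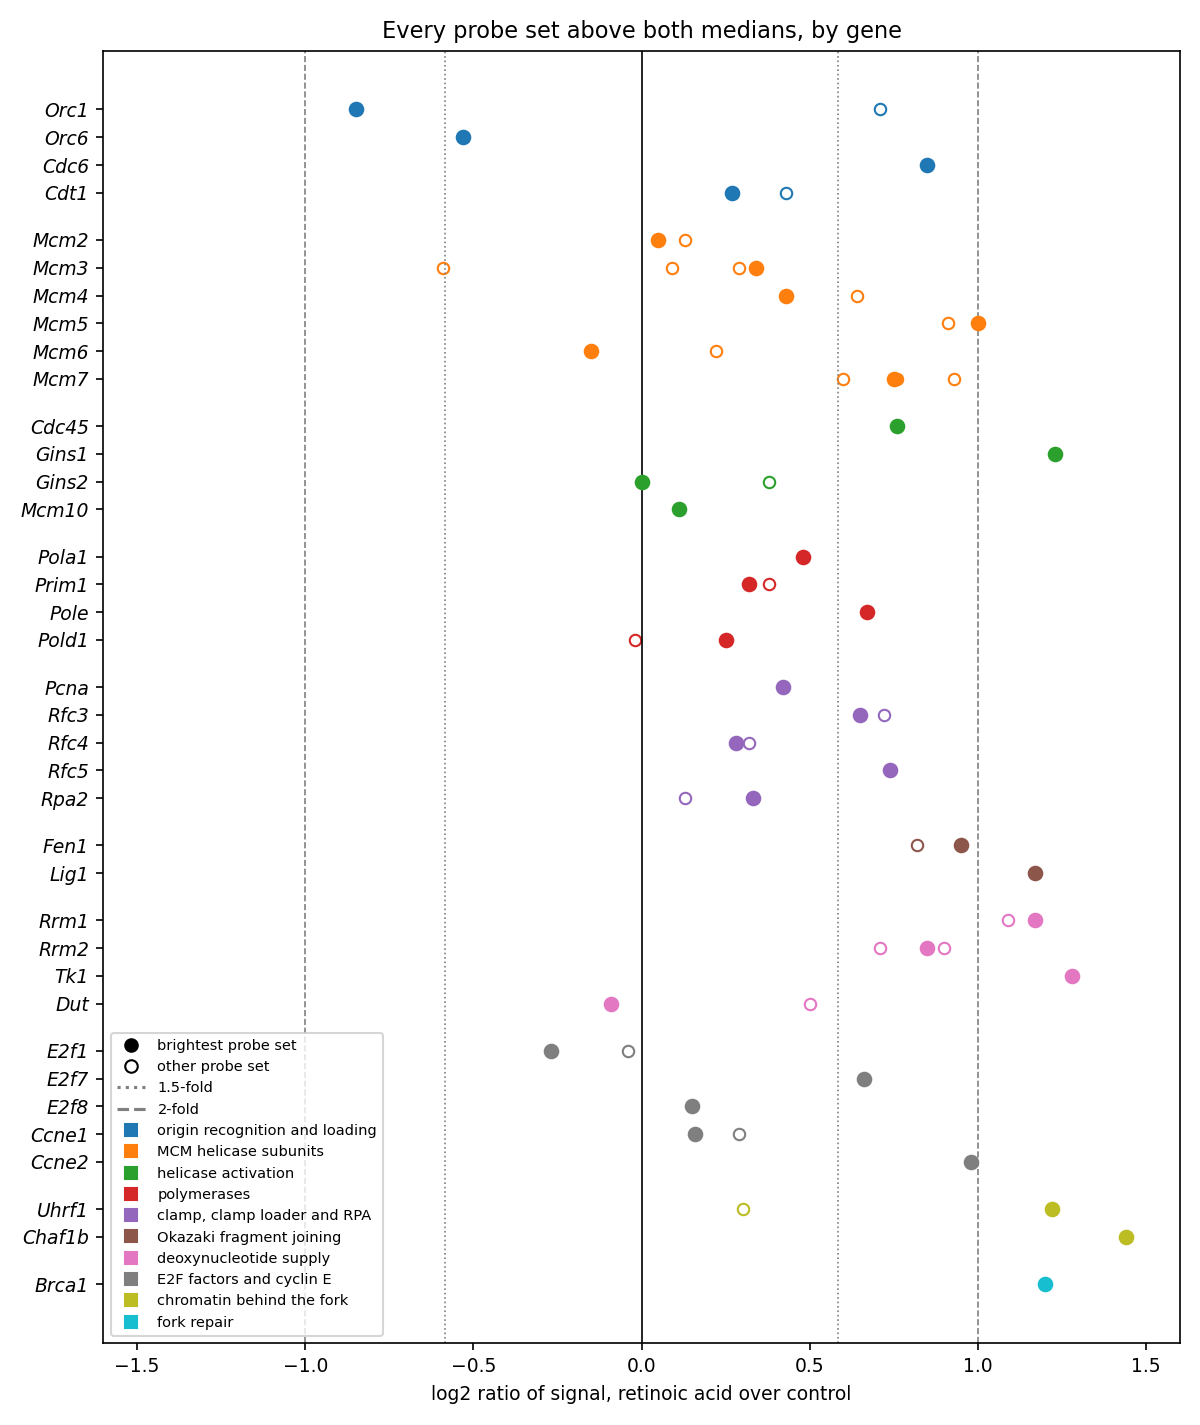
Log2 ratio of signal, retinoic acid over control, for each probe set above both array medians of the 37 genes that have one, filled for the brightest of a gene and open for the others, coloured by role; dotted lines mark 1.5-fold and dashed lines 2-fold. Orc1 spans −0.85 to 0.71, while the probe sets of Mcm5, Mcm7, Rrm1 and Rrm2 all lie to the right of the upper dotted line.

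Agreement between probe sets differed among the members. Of the 21 with more than 1 probe set above both medians, 16 had all of them on the same side of 1, and 5 did not (Orc1, Mcm3, Mcm6, Pold1 and Dut). Leaving those 5 out, 31 of 33 members had a ratio above 1, 18 had ratios of 1.5 or more and 7 of 2 or more, and the median log2 ratio was 0.66. None of the genes past 1.5-fold upward was among the 5. The 5 were left out by the sign of these same ratios, and their brightest probe sets had log2 ratios from −0.85 (Orc1) to 0.34 (Mcm3). The higher median without them follows from that choice and is no independent check. The SD of log2 ratios between members, 0.53, was larger than the 0.32 between probe sets of the same member.

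The larger ratios were more frequent among dim members. Among members with a mean signal of 100 or less (10 genes) 7 were at least 1.5-fold higher, against 17.3% of the 2249 genes of that brightness above both medians. From 100 to 300 it was 43.8% of 16 members against 471 of 3353 genes, and above 300 it was 36.4% of 11 members against 12.0%. The median log2 ratio of the members was 0.71, 0.41 and 0.42 in these bands, and that of all genes 0.05, −0.01 and 0.01.

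A wider set of replication genes, on no part of the list above, had ratios nearer to 1. In 6 further lists (licensing and firing, fork, nucleotide supply, E2F, Rb and CDK2, chromatin, and checkpoint and recombination) 95 of 105 genes were measured. Of these 20 (21.1%) reached a ratio of 1.5 and 5 (5.26%) a ratio of 2, while 4 (4.21%) were lower by 1.5-fold or more. Over all measured genes these shares were 14.3%, 6.54% and 11.4%, so 2-fold ratios were no more frequent in these lists than on the whole array. Their median log2 ratio was 0.15. The 5 past 2-fold were Top2a, which untangles DNA (403 to 898, ratio 2.23), Rad51ap1, a recombination factor (74.5 to 156, 2.09), Gmnn, the inhibitor of CDT1 (91.3 to 188, 2.06), Rnaseh2c, a subunit of the enzyme that removes RNA from DNA (185 to 379, 2.05), and Tfdp2, an E2F partner (167 to 337, 2.01).

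By list, other licensing and firing genes had 4 of 15 past 1.5-fold upward (26.7%, against 14.3% of all measured genes), and their median log2 ratio was 0.06. Beside Gmnn these were Cdc7 (59.0 to 101, ratio 1.71) and Dbf4 (317 to 492, 1.55), the kinase and its activator that fire origins, and Mcmbp (414 to 632, 1.53). Other fork genes had 6 of 23 (26.1%) and a median of 0.10, with Top1 at 1.92 and the nuclease gene Dna2 at 1.79. The E2F, Rb and CDK2 list had 3 of 14 (21.4%) and a median of 0.29. In it Cdc25a, the phosphatase that activates CDK2, had 98.7 and 192 (1.95), Ccna2, the cyclin of S phase, had 308 and 549 (1.78), and Fbxw7, which targets cyclin E for breakdown, had 224 and 142 (1.57-fold lower).

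Chromatin genes had 2 of 10 at least 1.5-fold higher (20.0%, against 14.3% of all measured genes) and a median of 0.36, with all 10 above 1. That count of 2 ran from 1 to 3 over the 12 planned settings. Asf1b, a histone chaperone that hands histones to CAF-1, had 78.5 and 153 (1.94), Lmnb1 1.52, Slbp 1.36 and Hat1 1.32. Checkpoint and recombination genes had 3 of 16 (18.8%) and a median of 0.30, with Exo1 at 1.91, Rad54l at 1.54 and Msh6 at 1.37. Their count ran from 0 to 4 over those settings, so neither list stood clearly apart from all measured genes in 1.5-fold calls. Nucleotide supply genes outside the member list had 2 of 17 (11.8%) higher and 2 (11.8%) lower, near the 14.3% and 11.4% of all measured genes, with a median of −0.16; with each gene at the median of its probe sets 0 were higher. By brightest probe sets, Nme1 had a ratio of 1.91 and Samhd1, which breaks deoxynucleotides down, 1.71, though 1 of the 3 further probe sets of Samhd1 had the other sign, while Dctd was 1.72-fold and Cad 1.51-fold lower.

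Subunits of the same complexes were also set side by side, singled out after their values were seen. Orc2, Orc3, Orc4 and Orc5, which with Orc1 and Orc6 complete the origin recognition complex, had ratios of 0.820, 0.824, 0.824 and 0.675. With Orc6 at 0.692, these 5 subunits all had ratios below 1, as did 5754 of the 11884 measured genes. For Orc3 1 further probe set had the other sign. The log2 ratios of Orc2, Orc3 and Orc4, −0.29, −0.28 and −0.28, were within the SD of 0.30 between probe sets of a gene. None of the 5 was 1.5-fold lower. The accessory polymerase subunits Pole2, Pole3, Pole4, Pold2, Pold3 and Pold4 had ratios from 0.615 to 0.938, against 1.59 for Pole and 1.19 for Pold1, the catalytic subunits. Of these accessory genes only Pole2 was at least 1.5-fold lower. Pole3, Pole4 and Pold3, at log2 ratios of −0.09, −0.11 and −0.17, were within that SD. Both further probe sets of Pold3 had the other sign. The accessory genes of the primer-making polymerase were above 1, with ratios of 1.14 for Pola2 and 1.08 for Prim2, so the accessory subunits did not all go 1 way.

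**Figure D3:**
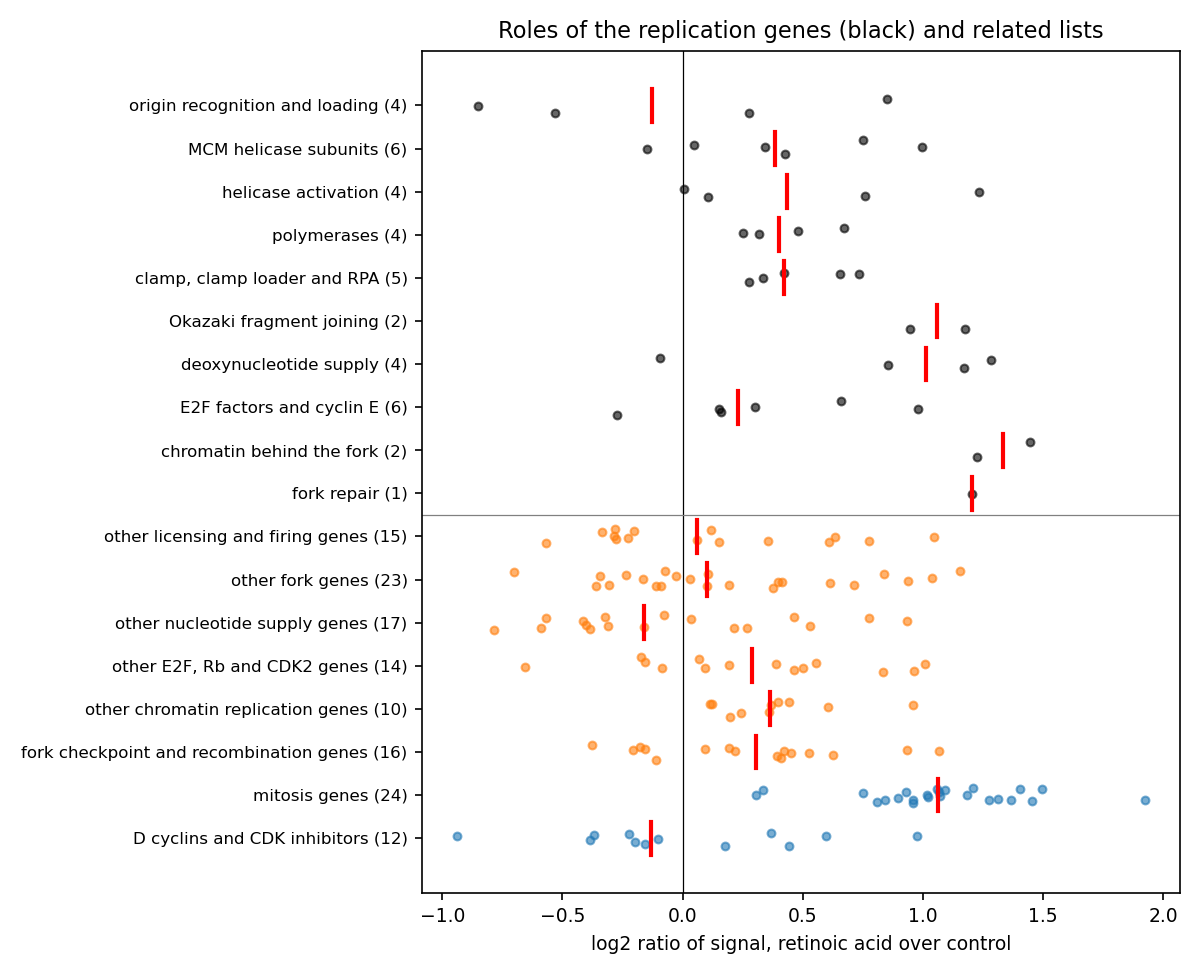
Log2 ratio of signal, retinoic acid over control, of each measured gene by role of the members (black) and in the related lists (orange for replication, blue for the rest of the cell cycle), with the number of genes in brackets; red bars are medians and points are spread vertically for legibility. Among the members the median is 0.23 for the E2F and cyclin E genes and 1.33 for chromatin behind the fork. Origin recognition and loading is drawn at −0.13 but was 0.49 with the other probe set of Orc1, and mitosis genes are at 1.06.

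Mitosis genes and the D cyclins with CDK inhibitors are the closest other parts of the cell cycle. Of 24 measured mitosis genes 22 (91.7%) had ratios of 1.5 or more and 15 (62.5%) of 2 or more, and their median log2 ratio was 1.06. For the replication genes these were 18 (47.4%) and 7 (18.4%) of 38 and 0.45, and for all measured genes 14.3%, 6.54% and 0.02. With 1 array a group the difference between the 2 lists was not tested. Mki67, the common proliferation marker, had 282 in control and 725 with retinoic acid (2.58). The others with the largest ratios were Bub1b (43.5 to 165, 3.80), Cenpf (2.82), Nuf2 (2.74) and Ube2c (2.64).

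The 12 D cyclins, their kinases and CDK inhibitors had a median log2 ratio of −0.13. Ccnd1, the cyclin that starts Rb phosphorylation, had 871 and 1710 (1.96), and its kinases Cdk4 and Cdk6 had ratios of 1.51 and 1.36. Cdkn2b, an inhibitor of those kinases, had 888 and 463 (1.92-fold lower). The inhibitor genes Cdkn1a, Cdkn2a, Cdkn1b and Cdkn1c were lower by less, 1.30-fold, 1.29-fold, 1.15-fold and 1.07-fold. Others went the opposite way. The brighter D cyclin gene Ccnd2 had 4743 and 4067 (1.17-fold lower), and Ccnd3 was 1.12-fold lower. The inhibitor genes Cdkn2c and Cdkn2d had ratios of 1.13 and 1.29. Of the 12 genes 5 had ratios above 1 and 7 below 1, so the list had no common direction.

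**Figure D4:**
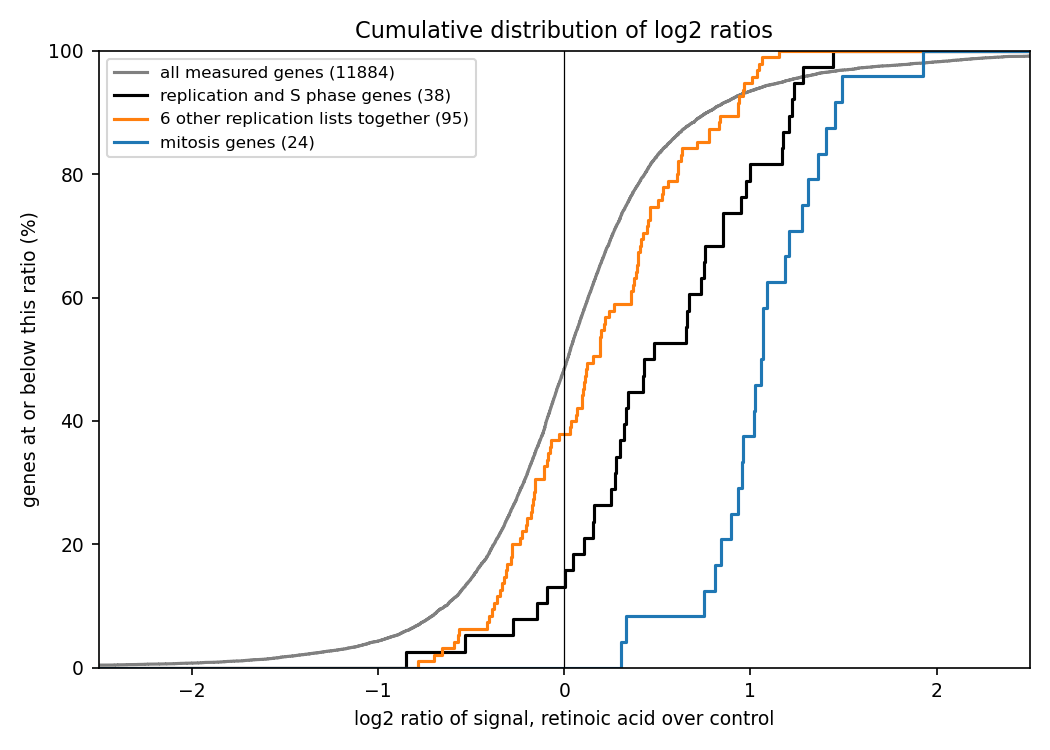
Cumulative share of genes, in percent, at or below each log2 ratio of signal (retinoic acid over control) for all measured genes, the replication and S phase genes, the 6 other replication lists together and mitosis genes, with gene numbers in the key. The medians are 0.02, 0.45, 0.15 and 1.06, and the curve of the replication genes lies between those of the 6 other lists and of the mitosis genes over most of the range.

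Promoter letters were compared over the whole list as a description. RefSeq windows of 300 bases (250 before and 50 after the start, GRCm38.p6) were given for 35 of the 40 genes by symbol, 41 windows in all; Mcm4, Ccne2, Gins1, Gins2 and Pole had none. An E2F core spelling was present in 27 of the 41 (65.9%), in 9.57% of the 32851 windows of the table and in 16.2% of the 12370 windows of genes measured here. The members have a median GC content of 58.3% against 61.0% for measured genes. Among measured genes within the range of GC of the members the share was 16.3%.

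The letters CCAAT, read on either strand and bound by NF-Y, were in 61.0% of member windows and 37.1% of those of measured genes. The direct repeat of AGGTCA with a spacer of 5 bases, the classical retinoic acid response element known as DR5, was in 0 of the 41, and in 0.00913% of all windows. Only this exact spelling was searched, and it was in 3 of the 32851 windows. Its absence from so few member windows therefore says nothing about response elements of other spelling or place. E2F promoter letters were listed for 23 measured members, whose median log2 ratio was 0.65, with 12 of them past 1.5-fold upward. For the 10 measured members whose windows lacked them, the median was 0.13 and 3 were at least 1.5-fold higher, among them Tk1. Over all measured genes the medians were 0.03 with (1867 genes) and 0.01 without (7754 genes), and 13.7% and 13.6% were at least 1.5-fold higher. The member groups overlapped in ratio, from −0.85 to 1.44 with the letters and from −0.53 to 1.28 without. A match is a description of letters and not of binding.

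The labelled cell type and the other cells a joint preparation can hold were checked on the same arrays. All 10 chondrocyte markers were above the median on both arrays, and their summed signal was 57395 in control and 30493 with retinoic acid. Of these 6 (60.0%, against 4.34% of all measured genes) were at least 2-fold lower, Acan (32.3-fold) and Sox9 (10.8-fold) among them. The markers Col2a1, Comp, Col11a1 and Col9a1 were lower by only 1.29-fold, 1.27-fold, 1.40-fold and 1.68-fold. Of 5 superficial zone markers 4 were above it on both, with Prg4, the lubricin gene, at 1920 and 1148 and Clu 5.97-fold higher; Cilp was at or below it on both. Among 6 erythroid and blood progenitor markers only Cd34 was above it (127 and 36.2), and the erythroid genes Hba-a1, Alas2 and Slc4a1 had signals from 1.87 to 3.64. Pecam1, Cdh5 and Ptprc, which define endothelial cells and leukocytes, were at or below it on both arrays.

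Other cell type lists were mixed. Of 6 endothelial markers none was above the median on both arrays, with summed signals of 98.4 and 197, Cldn5 going from below it to 108. Macrophage and leukocyte markers summed to 525 and 602, with 5 of 7 above it on both. Smooth muscle and pericyte markers summed to 6030 and 9361, with 5 of 6 above it on both. Of these 5, 4 had ratios above 1, among them Rgs5 (2.93-fold higher), and Cnn1 was 1.65-fold lower. Myh11 was at or below the median on both arrays. Tendon and fibroblast markers summed to 12649 and 11134 (5 of 6 above it on both), with Pdgfra 2.58-fold higher and Thy1 2.52-fold lower. Osteoblast markers summed to 225.0 and 210.2 (2 of 4). Of these Sp7 was 3.01-fold lower, Ibsp had a ratio of 1.13, and Dmp1 and Phex had bounds of at least 1.54-fold and 1.76-fold higher. Skeletal muscle markers summed to 178 and 138 (2 of 5), with Des 2.27-fold lower but Myog at a ratio of 1.31. The part of these differences in the ratios of the replication genes was not tested.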

How the data were processed

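The authors deposited MAS5 signal, a linear intensity for each probe set, per the submitters' processing notes; biotinylated cRNA came from 100 ng of total RNA, per the labels' protocols. Not given in the sources used here: the MAS5 version, the scaling target, and detection calls. Values were used as deposited (trimmed means of 182 and 192, 2% trimmed at each end). Of 45101 probe sets, 64 were controls, 34945 had 1 gene symbol in the platform table, 932 several and 9160 none; only those with 1 were used. Signals at or below the array's median were raised to it, and each gene was read by its probe set of highest mean log2 signal. A gene was measured if above the median on either array (11884; 10722 on both, 1162 on 1, giving bounds). Calls were folds of 1.5 and 2; with 1 array per group no test was run. The steps were checked on simulated data with less scatter than the SD of 0.30 between probe sets and with changes placed only in brighter genes. That check therefore does not show how calls behave in dim genes or at the scatter seen here. Named genes were all members and, per related list, up to 4 with the largest log2 ratio in size, plus Mki67, Top2a and Ccna2. Other genes named, among them Orc2 to Orc5, the accessory polymerase subunits, and some markers, were chosen after their values were seen. Members and lists were chosen with earlier results of these data known. The alternatives were 12 planned settings and 2 added after the data were seen. RefSeq promoters were matched by symbol. Python 3.11.15, numpy 2.4.6, pandas 2.3.3, statsmodels 0.14.6 and matplotlib 3.10.9 were used.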

Additional observations from a re-analysis of the deposited data

How the results depend on the processing

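The median log2 ratio of the members ran from 0.37 to 0.50 over the 12 planned settings, and none of them was at least 2-fold lower in any. The count at least 2-fold higher, 7 as reported, was 2 with a floor at the 70th percentile and 3 with each gene at the median of its probe sets. The first leaves 26 members measured and the second 34. Both shares, 7.69% and 8.82%, lay close to those of all genes, 5.32% and 6.29%. The second reads Chaf1b and Gins1 only as bounds, so its count may be too low. The count at least 1.5-fold higher, 18, was 11 with that higher floor. The count at least 1.5-fold lower, 1 (Orc1), was 0 with that floor, with the offset, with quantile normalization and with the median over probe sets. In the 2 settings chosen after seeing the data it was also 0. These left out the 5 members whose probe sets differ in sign, or read Orc1 by its other probe set. With trimmed means set equal the count was 2, where Orc6 joined Orc1. Orc1 reversed to a log2 ratio of 0.56 with quantile normalization, which changed which probe set was brightest. Of 434 values of single members under the alternatives 420 moved by less than the SD of 0.30 between probe sets of a gene, 13 by more, and 1 reversed. Among members near 1, the sign of Mcm2, Gins2 and Mcm10 turned under at least 1 scaling. The medians of the other licensing and other fork lists each reached −0.07 under an alternative, and that of the D cyclin list 0.04, so these have no settled sign. Quantile normalization took the share of higher calls among all genes past 1.5-fold from 55.6% (1695 higher, 1356 lower) to 45.3% (1419 and 1716). Over all genes the 2-fold counts, 777 higher and 516 lower, were 449 and 260 with the floor at the 70th percentile, 1101 and 832 at the 30th, and 2137 and 2106 with no floor. Low signals limit Cdc6, Chaf1b, Brca1 and Orc1 most. No paired analysis was possible because each group has 1 array.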
